A study of Mus musculus with 17 samples.

Results

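The choroid plexus genes Ttr, Kl, Folr1, Kcnj13, Aqp1, Clic6, Otx2, Prlr, Enpp2 and Sostdc1 were followed through hippocampal RNA of young and old mice. These 10 genes were chosen by name as genes that mark choroid plexus epithelium, and all 10 were found among the 38355 gene identifiers counted. RNA came from hand-dissected hippocampi of untreated wild type C57BL/6J mice, sequenced as polyA libraries and counted per gene in 17 libraries. Single-end libraries were made at 3 months (3M, n = 5) and 24 months (24M, n = 6), and paired-end libraries at 3 months (n = 3) and 29 months (29M, n = 3). Each library is 1 sample of the labels, which do not say whether 1 mouse or several gave it. Age and library type vary together, so an aged group was compared only with 3M samples sequenced in the same way.

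The choroid plexus is a sheet of epithelium that hangs into the brain ventricles, lies along the hippocampal fimbria and makes the cerebrospinal fluid. Its cells secrete carrier proteins into that fluid, move water and ions across the sheet, and carry receptors for hormones and vitamins between blood and brain. Of the members, Enpp2 is also made by oligodendrocytes. In a bulk sample, fewer cells of a type and less RNA per cell cannot be told apart.

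Counts on genes summed to between 9213474 and 28438296 per library. The counts of 24M replicates 1 and 4 differed by less than the sampling noise, with a mean squared difference of 0.406 in units of counting variance against 1.23 or more for the other pairs of libraries. They were averaged and counted as 1 sample, which left n = 5 at 24M. Every member was detected in every library, with 176 counts of Otx2 as the lowest value and 155431 counts of Ttr as the highest. The summed level of 10 hippocampal neuron genes, among them Nrgn and Camk2a, was 6355 to 8215 counts per 1000000 (CPM) in the single-end samples and 6498 to 7114 CPM in the paired-end samples.

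Ttr encodes transthyretin, the carrier of thyroxine and retinol-binding protein in cerebrospinal fluid, and it had the highest mean CPM of all 15683 genes tested in the single-end libraries. Among 15097 genes tested in the paired-end libraries it ranked 2. Ttr took between 0.183% and 0.766% of the counts in the 3M single-end libraries, and the members together took 0.315% to 1.35%. In the 24M libraries Ttr took 0.402% to 0.719%, at 3M in paired-end libraries 0.309% to 0.589%, and at 29M 0.383% to 0.557%. Per kilobase of exon, the mean level over the 10 single-end samples was 4655 CPM for Ttr and 536 CPM for Enpp2, and neither range touched the next gene's. The other members followed far below in the order Clic6 (32.3 CPM per kilobase), Kl (26.2), Kcnj13 (23.5), Sostdc1 (22.4), Folr1 (19.0), Aqp1 (15.4), Otx2 (6.09) and Prlr (5.51). The ranges of each pair of neighbours from Clic6 down to Prlr overlapped, although Clic6 lay above Kl, and Aqp1 above Otx2, in 10 of 10 samples. Kcnj13 lay above Sostdc1 in 6 of 10. In the paired-end samples Kcnj13 stood between Clic6 and Kl, and it was higher than Kl in 6 of 6.

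The members include a transcription factor, Otx2. Their promoters were searched for TAATCC, the letters bound by homeodomains of the OTX type, on both strands (GGATTA on the other). Whether Otx2 acts on the other members was not tested. RefSeq start-site windows of 250 bases before to 50 bases after the start (GRCm38.p6) matched 5 of the 10 genes, Kl, Kcnj13, Aqp1, Otx2 and Prlr, in 10 windows. Of these 1 held the letters, a window of Otx2 itself, 211 bases before the start. Of all 32851 windows, 7.06% held them. A match is a description of letters and not of binding. The Otx2 window is shown with the match in capitals, followed by windows of Kl, the member closest to Ttr over both library types, and Kcnj13, the member least close, neither of which holds the letters.
Otx2 (chr14:48665060-48665359, minus): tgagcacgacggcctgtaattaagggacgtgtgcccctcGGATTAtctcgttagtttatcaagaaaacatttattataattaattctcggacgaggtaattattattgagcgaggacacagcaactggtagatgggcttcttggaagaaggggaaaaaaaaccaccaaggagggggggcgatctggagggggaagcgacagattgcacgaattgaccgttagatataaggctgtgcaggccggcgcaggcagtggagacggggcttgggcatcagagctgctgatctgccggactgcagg
Kl (chr5:150952357-150952656, plus): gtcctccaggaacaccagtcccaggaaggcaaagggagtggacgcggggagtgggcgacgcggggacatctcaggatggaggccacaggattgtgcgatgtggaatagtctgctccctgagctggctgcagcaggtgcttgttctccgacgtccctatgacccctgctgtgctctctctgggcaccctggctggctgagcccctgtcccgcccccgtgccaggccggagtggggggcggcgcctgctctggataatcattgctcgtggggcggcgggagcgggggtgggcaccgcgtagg
Kcnj13 (chr1:87394680-87394979, minus): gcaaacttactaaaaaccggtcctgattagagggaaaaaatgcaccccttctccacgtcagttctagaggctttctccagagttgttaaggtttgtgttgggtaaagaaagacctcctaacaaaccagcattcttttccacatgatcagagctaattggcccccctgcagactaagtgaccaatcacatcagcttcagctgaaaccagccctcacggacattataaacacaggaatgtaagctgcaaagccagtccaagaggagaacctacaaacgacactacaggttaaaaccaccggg
The windows differ in base composition, with 67.3% G and C in that of Kl, 51% in that of Otx2 and 46% in that of Kcnj13.

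The loci are spread over 9 chromosomes (GRCm38, GENCODE gene models). Ttr lies on chromosome 18 (20665280 to 20674321, plus strand), Kl on 5 (150952607 to 150993817, plus), and Folr1 on 7 (101858331 to 101870788, minus). Kcnj13 lies on 1 (87386363 to 87394729, minus), Aqp1 on 6 (55336432 to 55348555, plus), and Clic6 on 16 (92485736 to 92541243, plus). Otx2 lies on 14 (48657677 to 48673819, minus) and Sostdc1 on 12 (36314139 to 36318452, plus). Prlr (10177238 to 10349180, plus) and Enpp2 (54838901 to 54952892, minus) are both on 15. All are protein-coding, and counts cover their exons. Exons of Kcnj13 overlap those of Gigyf2 on the opposite strand, and exons of Enpp2 those of the noncoding Gm26684. Exons of Prlr overlap Gm21973 on the same strand, which had 0 counts. The library kit (TruSeq RNA, version 2) does not mark strand, so reads of a gene and of a partner on the opposite strand cannot be told apart.

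None of the 10 members was called at either age. To be called, a gene needed an adjusted p no higher than 0.05 and a log2 fold change of 0.5 or more in either direction, by edgeR (quasi-likelihood test, Benjamini-Hochberg adjustment over all genes tested). At 24M 0 of 10 members were called, where 1.98% of 15683 genes were, and at 29M 0 of 10, where 1.45% of 15097 genes were. At an unadjusted p under 0.05 stood 0 of 10 members at both ages (12.1% of genes on the lower and 14% on the higher side at 24M, 7.48% and 9.86% at 29M), and DESeq2 called 0. Without the fold threshold 5.58% and 2.99% of genes passed, and 0 of 10 members. The 24M and 3M samples of every member overlapped, while 3.15% of genes had all 24M samples above and 3.42% below all 3M samples. The 29M and 3M samples of every member overlapped too, against 11.9% of genes above and 10.5% below. The median log2 fold change of the members was 0.06 at 24M and -0.08 at 29M, beside -0.003 and -0.002 over all genes tested, with 2 of 10 members below 0 at 24M and 8 of 10 at 29M (50.8% and 50.6% of all genes).

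**Figure D1:**
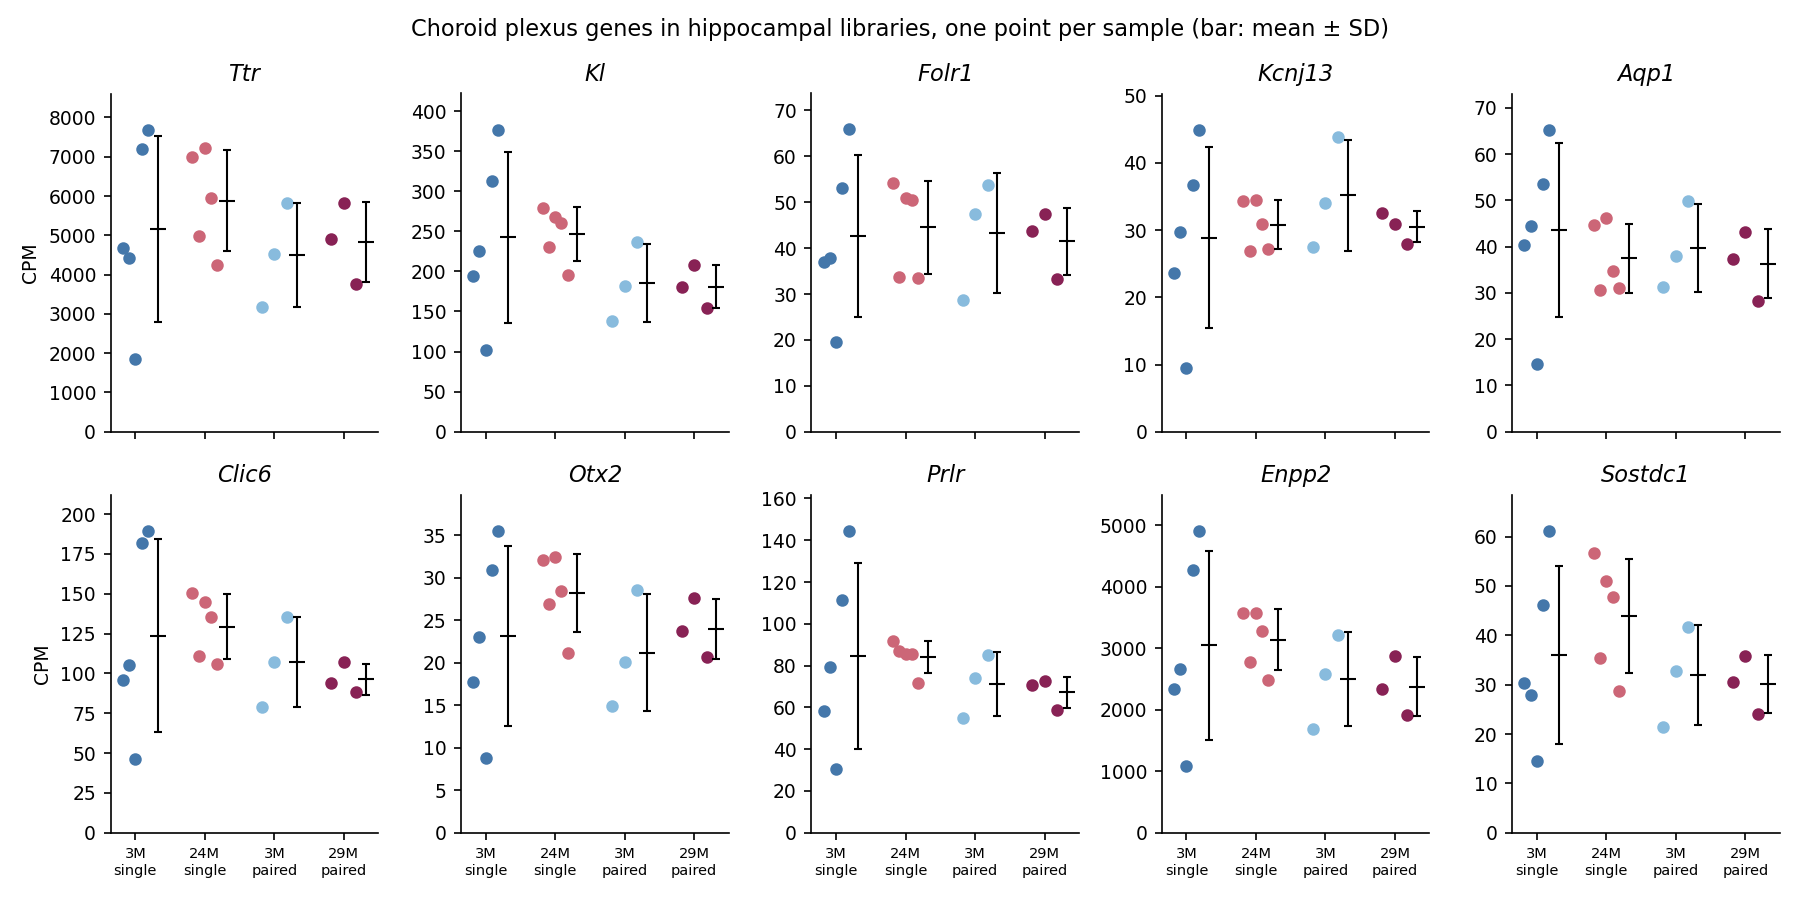
Level of each choroid plexus gene in CPM (vertical axes, from 0) in the 3M and 24M single-end and the 3M and 29M paired-end samples (horizontal axis), 1 point per sample with bars for mean ± SD. The 5 single-end 3M samples span the widest range for every gene, from replicate 3 at the bottom to replicate 5 at the top, and all 24M samples lie inside that range.

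Among the secreted products, Ttr stood at 4665, 4426, 1841, 7186 and 7680 CPM in 3M single-end replicates 1 to 5. At 24M it stood at 7000.04, 4994, 7232 and 5941 CPM in replicates 2, 3, 5 and 6, and at 4242 CPM in the mean of replicates 1 and 4. Replicates 3 and 5 of the 3M group enclosed all of the 24M samples. Ttr differed by 0.19 on the log2 scale between 24M and 3M, with a 95% interval of -0.42 to 0.80 (edgeR quasi-likelihood, Benjamini-Hochberg adjusted p = 0.708). In the paired-end libraries, Ttr stood at 3164, 4525 and 5816 CPM at 3M and at 4899, 5822 and 3770.25 CPM at 29M. The aged samples fell among the young ones, apart from 29M replicate 2, which lay just above the highest. Its log2 fold change at 29M was 0.10, with an interval of -0.28 to 0.48 (adjusted p = 0.817).

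Enpp2 encodes autotaxin, the secreted enzyme that makes lysophosphatidic acid, and was the fifth most abundant gene of the single-end libraries. Its levels were 2343, 2672, 1079, 4272 and 4904 CPM in 3M replicates 1 to 5. At 24M they were 3574, 2781, 3584 and 3289 CPM in replicates 2, 3, 5 and 6 and 2483 CPM in the mean of 1 and 4. The order of the 3M samples at both ends was that of Ttr, and the 24M samples lay in the middle of it. The log2 fold change of Enpp2 was 0.04 at 24M (95% interval -0.58 to 0.67) and -0.07 at 29M (-0.46 to 0.32). Paired-end values were 1690, 2583 and 3212 CPM at 3M and 2343, 2881 and 1911 CPM at 29M, all of the aged samples inside the young range. Of the list of 10 genes for lysophosphatidic acid, its receptors and its phosphatases, which holds Enpp2, 9 were tested at 24M and 8 at 29M and none was called at either age by edgeR. The smallest p outside Enpp2 was that of the receptor gene Lpar6 at 24M (log2 fold change 0.66, adjusted p = 0.0525). The count at 24M was 1 or 2 under 6 of 22 alternatives, among them DESeq2 (1) and the fits that left out 3M single-end replicate 5 (2) or 24M replicate 4 (1).

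The receptors were next. Kl encodes klotho, the co-receptor for the endocrine factor FGF23, which is also shed into cerebrospinal fluid. It stood at 195, 226, 102, 313 and 377 CPM in 3M single-end replicates 1 to 5, and at 279, 230.2, 268, 261 and 195 CPM in 24M replicates 2, 3, 5, 6 and the mean of 1 and 4. Here too 3M replicate 3 was lowest and 3M replicate 5 highest, and the groups overlapped. The log2 fold change of Kl was 0.03 at 24M (95% interval -0.51 to 0.57). In paired-end samples Kl stood at 138, 182 and 237 CPM at 3M and 181, 208 and 154 CPM at 29M, a log2 fold change of -0.04 (-0.35 to 0.27). The aged samples again lay within the young range. In the klotho and endocrine FGF list 4 of 10 genes passed the filter on low counts and none was called. The FGF receptor gene Fgfr3 passed the adjusted p alone at 29M (log2 fold change 0.16, adjusted p = 0.0412), below the fold threshold.

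Folr1 encodes folate receptor alpha, by which the epithelium carries folate into the fluid. It ranged from 19.5 to 65.9 CPM (median 37.9) in 3M and from 33.5 to 54.2 CPM (median 50.5) in 24M single-end samples, and the log2 fold change was 0.06 (95% interval -0.49 to 0.61). In the paired-end samples the range of Folr1 was 28.6 to 53.8 CPM at 3M and 33.4 to 47.4 CPM at 29M (log2 fold change -0.07, interval -0.45 to 0.31). None of 10 folate transport genes was called, Folr1 included. The smallest p was that of Shmt2, a mitochondrial enzyme of folate metabolism, at 24M (log2 fold change -0.23, adjusted p = 0.110). 

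Prlr encodes the prolactin receptor. Of all members it had the widest spread at 3M in single-end samples, 30.5 to 144 CPM, with a coefficient of variation of 52.6%, and the narrowest at 24M, 71.5 to 92.0 CPM, with 9.03%. Its means were nearly equal, at 84.7 ± 44.6 CPM (SD, n = 5) at 3M and 84.2 ± 7.60 CPM (n = 5) at 24M. In paired-end samples Prlr ranged from 54.8 to 85.1 CPM at 3M and from 58.8 to 72.5 CPM at 29M. The log2 fold change was -0.09 at 29M, with an interval of -0.35 to 0.18, and the 24M samples of Prlr all lay within the 3M range. In the list of prolactin signalling genes, which holds Prlr, 0 of 10 were called at 24M (1 when 3M single-end replicate 1 was left out) and 1 of 9 tested at 29M, the feedback inhibitor gene Socs3 (log2 fold change 0.999, adjusted p = 0.0452). That call was lost when any of the 6 libraries was left out.

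The transport genes came next. Aqp1 encodes the water channel of the apical membrane and was the member with the lowest fold change at 24M. Its levels were 40.4, 44.4, 14.6, 53.6 and 65.2 CPM in 3M replicates 1 to 5 and 44.8, 30.6, 46.2, 34.8 and 31.1 CPM in 24M replicates 2, 3, 5, 6 and the mean of 1 and 4. Apart from 3M replicate 3, the 3M samples lay above the middle 24M sample, and the groups overlapped. Aqp1 had a log2 fold change of -0.21 (95% interval -0.82 to 0.40, edgeR adjusted p = 0.670). Paired-end levels of Aqp1 were 31.2, 38.1 and 49.9 CPM at 3M and 37.3, 43.2 and 28.3 CPM at 29M, where 29M replicate 3 was the lowest sample. The log2 fold change at 29M was -0.14 (-0.47 to 0.20).

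Kcnj13 encodes an apical inwardly rectifying potassium channel and had the lowest fold change at 29M. In single-end samples it stood at 23.6, 29.8, 9.47, 36.7 and 44.8 CPM at 3M, replicates 1 to 5, and at 34.4, 27.0, 34.4, 30.9 and 27.2 CPM at 24M. The 24M samples lay close together between the extremes of the 3M group, and the log2 fold change was 0.10 (95% interval -0.51 to 0.72). Paired-end samples gave 27.5, 34.0 and 43.9 CPM at 3M and 32.6, 30.9 and 28.0 CPM at 29M. All 29M samples lay above the lowest and below the middle 3M sample, and the log2 fold change was -0.20 (-0.48 to 0.07, edgeR adjusted p = 0.444). 

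Clic6 encodes a chloride intracellular channel protein. Clic6 ranged from 46.2 to 189 CPM (median 106) at 3M and from 106 to 151 CPM (median 135) at 24M, a log2 fold change of 0.07 (95% interval -0.54 to 0.68). At 3M in paired-end samples it stood at 78.7, 107 and 135 CPM, and at 29M at 93.9, 107 and 88.1 CPM, a log2 fold change of -0.15 (-0.45 to 0.14). The 29M samples of Clic6 did not reach the highest 3M sample. Of 18 genes for ion and water transport into the fluid, these 3 members among them, none was called at either age, although 2 were at 24M when 3M single-end replicate 5 was left out. Car2, encoding carbonic anhydrase, passed the adjusted p alone at both ages. Its log2 fold changes were 0.43 (24M, adjusted p = 0.0175) and 0.26 (29M, adjusted p = 0.00612). Car2 is also a gene of oligodendrocytes.

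Otx2, the homeodomain transcription factor that choroid plexus epithelium needs to form, had the highest fold change of the members at both ages. It stood at 17.8, 23.0, 8.79, 30.9 and 35.5 CPM in 3M single-end replicates 1 to 5 and at 32.1, 26.9, 32.4, 28.5 and 21.1 CPM in 24M replicates 2, 3, 5, 6 and the mean of 1 and 4. Most 24M samples lay above the middle 3M sample, but 3M replicate 5 was above them all. Its log2 fold change was 0.29 (95% interval -0.30 to 0.88, edgeR adjusted p = 0.528). Paired-end levels of Otx2 were 14.9, 20.1 and 28.6 CPM at 3M and 23.7, 27.7 and 20.6 CPM at 29M, a log2 fold change of 0.18 (-0.19 to 0.55). The 29M samples all lay between the middle and the highest 3M sample. Of 10 transcription factor genes that act beside or like Otx2, 7 were tested at 24M and 6 at 29M, and none was called, apart from 1 at 24M with the level of other choroid plexus genes as a covariate. Msx2 had the smallest p, at 24M (log2 fold change -0.83, adjusted p = 0.0914), at means of 0.884 CPM at 3M and 0.492 CPM at 24M.

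Sostdc1 encodes a secreted antagonist of Wnt and BMP signals. Its range was 14.6 to 61.1 CPM (median 30.2) at 3M and 28.8 to 56.6 CPM (median 47.7) at 24M in single-end samples, a log2 fold change of 0.29 (95% interval -0.35 to 0.93). In paired-end samples the direction was the other one, from 21.5, 32.7 and 41.7 CPM at 3M to 30.4, 35.9 and 24.1 CPM at 29M, a log2 fold change of -0.09 (-0.49 to 0.30). Both aged groups of Sostdc1 lay within the young range. Of 18 Wnt and BMP genes, Sostdc1 included, none of 16 tested was called at 24M (1 when 24M replicate 3 was left out), and 1 of 15 tested was called at 29M, the ligand gene Bmp6 (log2 fold change 0.53, adjusted p = 0.0341). Leaving out 3M paired-end replicate 1 or 3, or 29M replicate 1 or 3, ended that call.

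The effects at 29M and 24M were compared in a single edgeR fit of all 4 groups, in which 10.4% of 16055 genes differed at an unadjusted p under 0.05 and 0% once p was adjusted, with the limit again 0.05. Among the members, 0 of 10 differed at either threshold, and DESeq2 found 0. The widest difference was that of Sostdc1, -0.38 ± 0.48 (SE) on the log2 scale (adjusted p = 0.802), and the other members lay between -0.31 for Kcnj13 and 0.07 for Aqp1. Standard errors of 0.39 to 0.48 leave room for differences of that size in either direction.

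The spread among samples was the leading feature of these genes, most of all at 3M. At 3M in single-end samples the coefficients of variation of the members were 41.3% to 52.6%, while the median over 10144 genes with a mean of at least 10 CPM was 7.75% and the 95th percentile 19.7%. Only 70 of those genes (0.69%), the members included, had a coefficient at least as high as the lowest member. At 24M the members spread less, with 9.03% to 26.2%, against a median of 6.53% and a 95th percentile of 15.4% over the same genes. Prlr, Kcnj13 and Kl lay below that percentile. Paired-end 3M samples gave 21.5% to 32.5% (median of 10227 genes 4.77%, 95th percentile 13.6%). The 29M samples gave 7.61% to 21.3% (median 4.27%, 95th percentile 12.1%), with Kcnj13, Clic6 and Prlr below that percentile. The highest single-end sample exceeded the lowest by 3.39-fold for Folr1 to 4.73-fold for Kcnj13, and the highest paired-end sample by 1.55-fold for Prlr to 1.94-fold for Sostdc1. The median standard error of a member's log2 fold change was 0.28 at 24M, against 0.07 over genes of at least 10 CPM, and 0.16 against 0.06 at 29M. Single libraries decided the sign of these small differences. At 24M the median log2 fold change of the members was -0.14 when 3M single-end replicate 3 was left out and 0.27 when replicate 5 was. At 29M it was -0.28 when 3M paired-end replicate 1 was left out and 0.11 when replicate 3 was.

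The same samples stood at the ends for all or nearly all members. In single-end samples 3M replicate 3 was lowest and 3M replicate 5 highest for 10 of 10 members. In paired-end samples 3M replicate 1 was lowest for 9 members, the exception being Aqp1 with 29M replicate 3, and 3M replicate 3 was highest for 9, the exception being Ttr with 29M replicate 2. Within 29M, replicate 3 was lowest for 10 of 10. Within 24M, the mean of replicates 1 and 4 was lowest for 8, and replicate 3 for Kcnj13 and Aqp1.

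**Figure D2:**
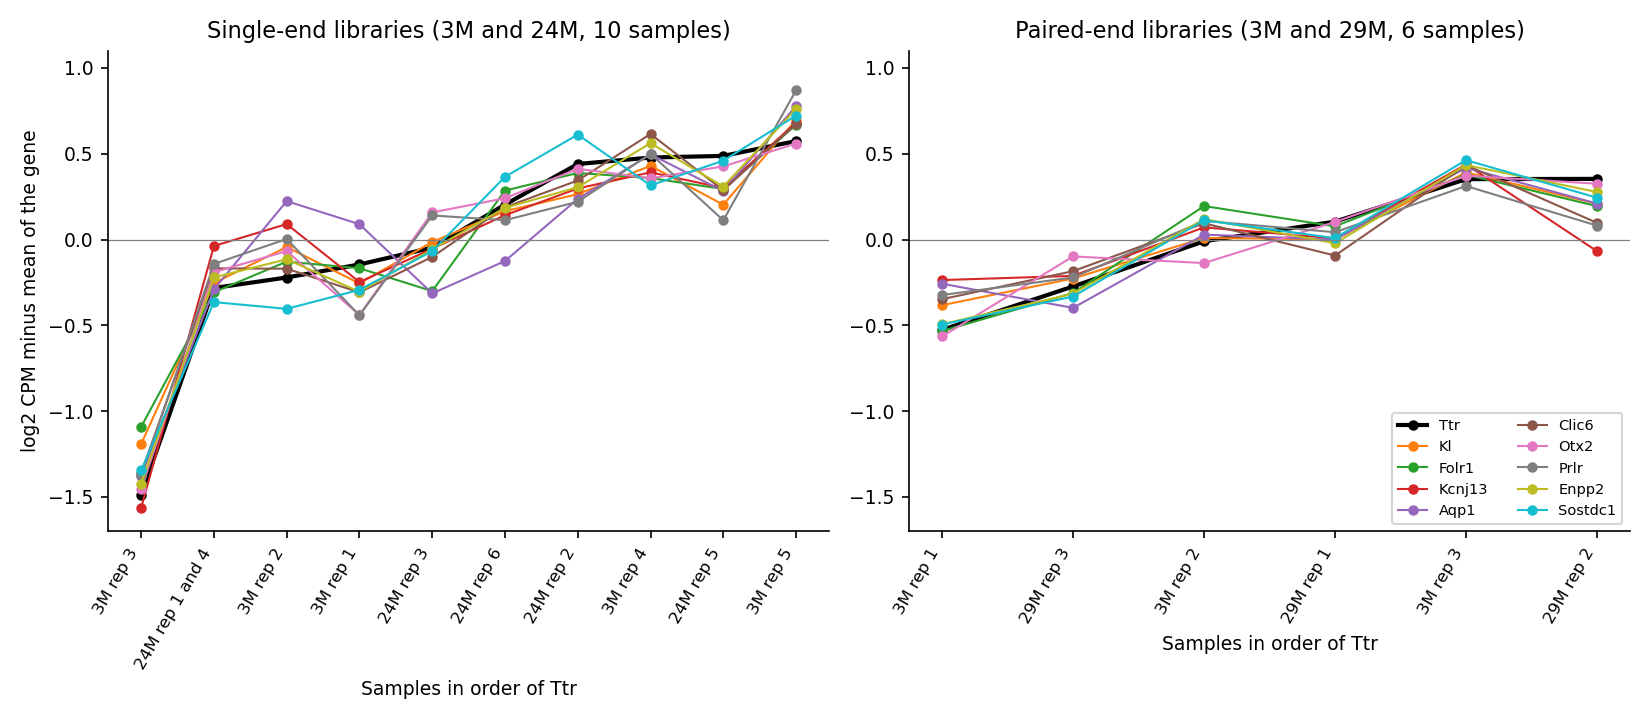
Log2 CPM of each choroid plexus gene minus that gene's mean over the samples shown (vertical axis), with samples in order of Ttr (horizontal axis), for 10 single-end samples at left and 6 paired-end samples at right. The lines run together from 3M replicate 3 to 3M replicate 5 at left, and Aqp1 and, at right, Kcnj13 leave the bundle most.

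Across the 10 single-end samples, log2(CPM + 0.5) of the other 9 members correlated with that of Ttr at a Pearson r of 0.913 (Aqp1) to 0.980 (Enpp2) and a Spearman rho of 0.830 (Prlr) to 0.952 (Otx2 and Enpp2). Adjusted permutation p-values over 18 relations were 0.00024 to 0.00314 for r and 0.00126 to 0.0101 for rho. Without the 2 samples farthest from the median of Ttr, r was 0.629 (Aqp1) to 0.951 (Sostdc1). Aqp1 and Prlr (0.721) lost more of their r this way than the others. Among the 6 paired-end samples r was 0.726 (Kcnj13) to 0.967 (Kl) and rho 0.6 to 0.886, with adjusted exact permutation p-values of 0.00909 to 0.0958 for r and 0.0429 to 0.242 for rho. For r, Kcnj13 did not pass (adjusted exact p = 0.0958). With 4 paired-end samples left, r was 0.331 for Kcnj13, 0.50 for Prlr, 0.573 for Folr1 and 0.582 for Clic6. Those values of r depend on the samples left out. The 4 samples left cover a narrower range, so they cannot tell whether the relations hold without the ends. For the other 5 members r was 0.778 to 0.981. In all, 17 of 18 relations passed for r and 14 of 18 for rho, for which Folr1, Kcnj13, Aqp1 and Prlr did not pass in paired-end samples (adjusted exact p = 0.144, 0.242, 0.07 and 0.144). With each value taken as its deviation from the mean of its age group, 18 passed for r and 17 for rho, Kcnj13 in paired-end samples being the exception (adjusted exact p = 0.0583). Without the 2 samples farthest from the median of Ttr on that scale, paired-end r was 0.708 (Kcnj13) to 0.993 (Kl). Over the 45 pairs of members, r had a median of 0.967 (0.842 to 0.997) in single-end and 0.929 (0.671 to 0.998) in paired-end samples. Levels of all members share 1 library total in each sample.

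Of 14897 genes tested at both ages, 51 had an r with Ttr of at least 0.9 in both library types, where the median of the smaller r over all genes was -0.22. They held 6 of the 9 other members and 7 of a list of 22 other choroid plexus epithelium genes. The 10 closest genes outside the members were Pcolce2 (smaller r 0.983), Mfrp (0.973), Slc4a5 (0.972), Wfdc2 (0.968), Slc2a12, Abhd2 and Slc31a1 (0.966 each), Elovl7 (0.964), Sulf1 (0.962) and Steap2 (0.960). Mfrp, Slc4a5, a sodium bicarbonate cotransporter gene, and Wfdc2 belong to the list of 22. Kl ranked 5 in this order and Kcnj13 ranked 226. None of these 10 genes was called, with log2 fold changes of 0.05 to 0.34 at 24M and -0.01 to 0.15 at 29M.

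All 22 other choroid plexus epithelium genes were tested at both ages, and 0 were called at either, with 0 at an unadjusted p under 0.05 and 0 called by DESeq2. Their median log2 fold change was 0.08 at 24M and 0.07 at 29M, with 7 and 9 of 22 below 0. The smallest p was that of Tmem72 at 29M (log2 fold change 0.32, edgeR adjusted p = 0.304). Their summed level was 494.5 CPM in 3M single-end replicate 3 and 1472 CPM in replicate 5, the same ends as for the members, and 695 to 1071 CPM over the paired-end samples.

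Markers of neighbouring tissue differed between these end samples to different extents, and not all in the same direction. The summed level of 10 ependymal genes was 49.8 CPM in 3M single-end replicate 3 and 108 CPM in replicate 5, and that of 10 oligodendrocyte genes 4572 and 7133 CPM. Meningeal fibroblast genes summed to 376 and 483 CPM in those samples and hippocampal neuron genes to 7273 and 7508 CPM. Igf2 (mean 260 CPM at 3M) was the largest part of the meningeal sum, and Camk2a (mean 4879 CPM at 3M) of the neuron sum. Striatum genes summed to 714 CPM in 3M single-end replicate 4 and to 231 to 294 CPM in the other single-end samples. Replicate 4 was next highest after replicate 5 for Kl, Kcnj13, Aqp1, Clic6, Prlr and Enpp2, but not for Ttr, Folr1, Otx2 and Sostdc1. It also had the highest oligodendrocyte sum of the single-end samples (7970 CPM). Among paired-end samples, ependymal genes summed to 68.9 CPM in 3M replicate 1 and 79.1 CPM in 3M replicate 3. Oligodendrocyte genes summed to 5073 and 5879 CPM there. Both sums were highest in 3M replicate 2 (85.3 and 7116 CPM). Meningeal genes summed to 356 and 490 CPM in 3M replicates 1 and 3, and hippocampal neuron genes to 7114 and 6534 CPM. The part of these tissues in the levels of the members was not tested.

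Between ages, none of 10 ependymal genes was called (smallest p Rsph1 at 29M, log2 fold change -0.34, adjusted p = 0.171), and none of 10 oligodendrocyte genes (Ermn at 29M, 0.41, adjusted p = 0.0170, below the fold threshold). Ermn at 24M stood at 0.64 (adjusted p = 0.0525), and the oligodendrocyte count there was 1 under 9 of 22 alternatives, DESeq2 and the fits that left out 24M replicate 4 or, at 3M, single-end replicate 4 or 5 among them. At 29M it was 1 when 3M paired-end replicate 2 was left out. Of 11 meningeal genes 2 were called at 24M, Ogn (0.96, adjusted p = 0.0226) and Lum (0.85, adjusted p = 0.0306). With 24M replicate 2, 24M replicates 1 and 4 or 3M single-end replicate 1 left out this count was 0. It was 1 with 24M replicate 5 or 6, or 3M single-end replicate 4, left out, and 4 with 24M replicate 3 left out. Of 8 endothelial genes 1 was called at 24M, Cldn5 (-0.60, adjusted p = 0.0242), and not without 24M replicate 2 or 3, 24M replicates 1 and 4, or 3M single-end replicate 1. All 5 blood cell genes had higher means at 24M, with log2 fold changes of 1.29 (Hba-a1) to 1.55 (Alas2), an unadjusted p under 0.05 for 5 of 5 and edgeR adjusted p-values of 0.0526 (Alas2) to 0.0954 (Hbb-bt). None was called there, but 1 to 5 were under 8 of 22 alternatives, among them 5 with all 4 groups in 1 fit and 5 with the replicate number as a block. Their summed level was 544 CPM in 24M replicate 2 and 76.3 to 159.5 CPM in the other 24M samples, beside 53.3 to 108.4 CPM at 3M. Of these 5 genes 2 were called at 29M, Hba-a1 (0.95, adjusted p = 0.0307) and Alas2 (0.85, adjusted p = 0.0478), and 0 without 3M paired-end replicate 1 or 3 or 29M replicate 2 or 3, 1 without 3M replicate 2 and 5 without 29M replicate 1. The block gave 4 calls at 29M. None of 8 thalamus and habenula genes tested (Slc17a6 at 29M, -0.46, adjusted p = 0.0140) and none of 10 hippocampal neuron genes (Wfs1 at 29M, -0.28, adjusted p = 0.0124) reached both thresholds. The thalamus and habenula count was 1 under 7 of 22 alternatives at 24M, where Tac2 stood at -0.68 (adjusted p = 0.0515), with 3M single-end replicate 5 or 24M replicate 4 left out among them. At 29M it was 1 or 2 under 4 of 15, with 3M paired-end replicate 1 (1) or 29M replicate 3 (2) left out among them. For retinoid and thyroid hormone transport, the pathway of Ttr, none of 11 genes tested at 24M and 10 at 29M was called, and the smallest p was that of the retinol dehydrogenase gene Rdh10 at 29M (0.20, adjusted p = 0.256).

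With so much of the spread shared, each member was compared again relative to the rest of the choroid plexus signal. The mean log2 CPM of the 22 other choroid plexus genes in each sample, which are not members, was added as a covariate to the edgeR fit, a choice made after the data were seen. It was 3.84 in 3M single-end replicate 3 and 5.51 in replicate 5. Standard errors of the members fell to 0.05 to 0.11 at 24M and to 0.03 to 0.08 at 29M. With the covariate 2.48% of genes were called at 24M and 1.42% at 29M, and again 0 of 10 members at either age. Without the fold threshold 7.67% of genes passed at 24M, and 0 members. At an unadjusted p under 0.05, a level that 12.4% of genes reached on the lower and 14.7% on the higher side at 24M, stood Aqp1 on the lower side and Otx2 and Sostdc1 on the higher side, each short of the adjusted threshold. The log2 difference of Aqp1 was -0.30 (95% interval -0.50 to -0.11, adjusted p = 0.0561), that of Otx2 0.22 (0.04 to 0.39, adjusted p = 0.110) and that of Sostdc1 0.19 (0.03 to 0.34, adjusted p = 0.115). The other 7 members lay between -0.04 and 0.10.

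At 29M, 8.09% of genes were on the lower and 10.5% on the higher side at an unadjusted p under 0.05. Clic6, Kcnj13, Enpp2, Aqp1 and Kl, 5 of 10 members, were on the lower side at that level and 0 on the higher. The members share this covariate and moved together from sample to sample, so these 5 are not separate results. At both ages every member stood lower with the covariate than without it, as Enpp2 did at 29M (-0.12 against -0.07). The mean of the covariate was higher in the aged than in the 3M samples at both ages, and the members rose with it across samples. This common shift therefore follows from the fit and is no result about the members. Clic6 passed the adjusted p alone, as 3.13% of genes did, with a log2 difference of -0.18 (95% interval -0.27 to -0.09, edgeR adjusted p = 0.0436), which is below the fold threshold. The difference of Kcnj13 was -0.23 (-0.39 to -0.06, adjusted p = 0.129) and that of Enpp2 -0.12 (-0.21 to -0.03, adjusted p = 0.158). Aqp1 was at -0.18 (-0.34 to -0.03, adjusted p = 0.199) and Kl at -0.07 (-0.14 to -0.01, adjusted p = 0.213). Ttr itself stood at 0.05 (-0.05 to 0.14), and Otx2 was the highest member with 0.15 (-0.003 to 0.30). With the covariate, the lower bounds of all members were at or above -0.50 at 24M and at or above -0.39 at 29M.

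**Figure D3:**
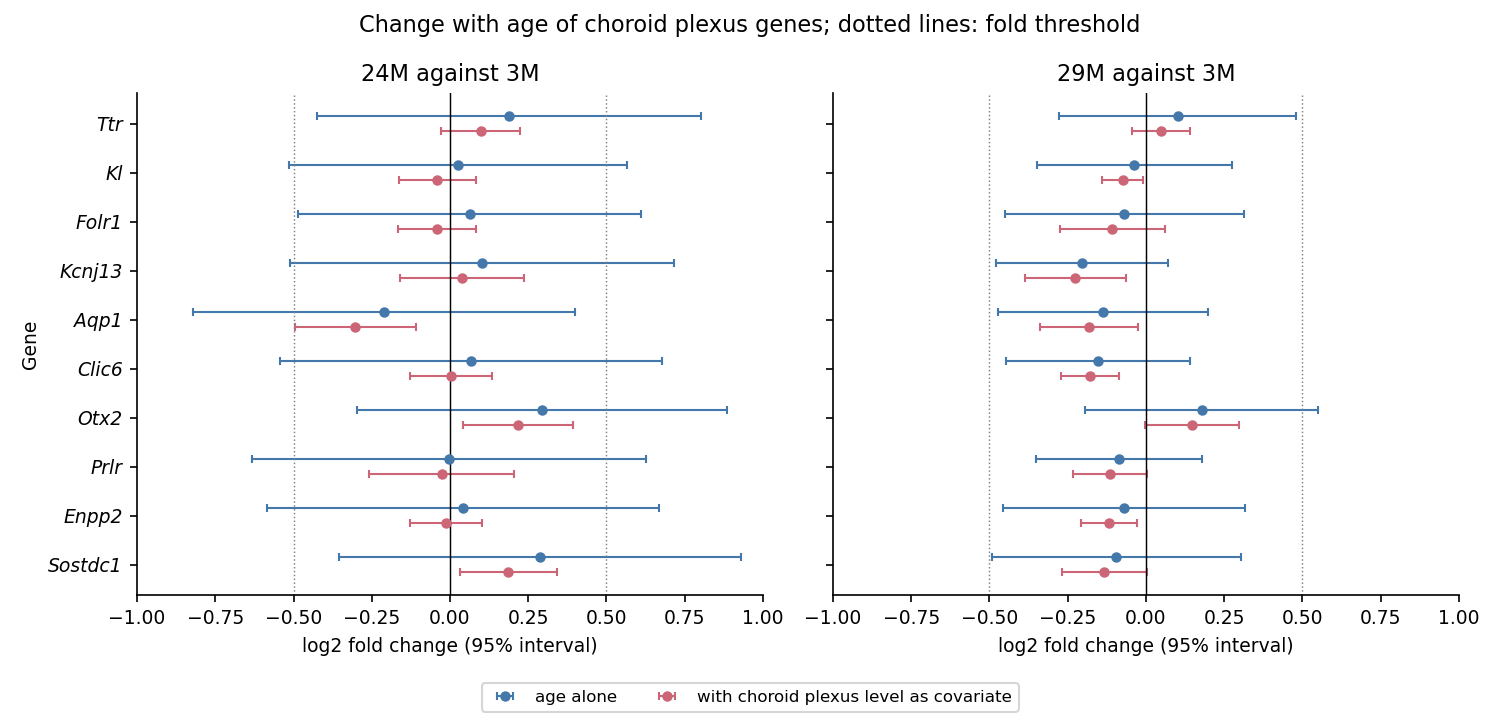
Log2 fold change of each choroid plexus gene (horizontal axis, points with 95% intervals) at 24M and at 29M, from age alone (blue) and with the mean level of 22 other choroid plexus genes as a covariate (red); dotted lines mark 0.5 in each direction. The intervals shrink with the covariate, and that of Aqp1 at 24M (-0.50 to -0.11) and that of Clic6 at 29M (-0.27 to -0.09) are among those that no longer hold 0.

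Each member was also divided by Ttr of the same sample, without a model and likewise chosen after the data were seen. The members that stood apart were only in part those of the covariate fit. Aqp1 stood at 8.67, 10.02, 7.94, 7.46 and 8.49 CPM per 1000 CPM of Ttr in 3M single-end replicates 1 to 5. At 24M it stood at 6.40, 6.12, 6.39, 5.86 and 7.33 in replicates 2, 3, 5, 6 and the mean of 1 and 4. Every 24M sample was below every 3M sample, as were 0.306% of genes on this scale. Most genes do not follow Ttr, so their ratios carry its spread (coefficient of variation 45.7% at 3M) and tend to overlap. That share is thus no measure of how rare a separation is among genes that follow Ttr. The means were 8.52 ± 0.968 (SD, n = 5) and 6.42 ± 0.552 (n = 5), a log2 difference of -0.40 (two-sided exact permutation p = 0.00794, the smallest that 252 splits allow, adjusted p = 0.143 over 18 ratios). In paired-end samples Aqp1 per 1000 CPM of Ttr was 9.87, 8.42 and 8.58 at 3M and 7.62, 7.42 and 7.52 at 29M. All 29M samples were again below all 3M samples, and the log2 difference was -0.25 (exact p = 0.1, the smallest that 20 splits allow).

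The ratios of the other 8 members overlapped at 24M (0.0829% of genes lay wholly above). At 29M, Folr1, Kcnj13, Enpp2 and Sostdc1 were also below all 3M samples relative to Ttr, as were 0.98% of genes, with log2 differences of -0.15, -0.30, -0.16 and -0.18, and 0 members lay wholly above, as 1.35% of genes did. These ratios share the Ttr values, so they are not independent of each other. The shares over all genes are mostly of genes that do not follow Ttr, so they do not measure rarity among genes that do. Kcnj13 per 1000 CPM of Ttr was 8.69, 7.52 and 7.55 at 3M and 6.65, 5.31 and 7.42 at 29M, and at 24M its ratio overlapped with 3M (5.57 ± 0.721 at 3M, 5.34 ± 0.655 at 24M, SD, n = 5 each). Otx2 and Sostdc1 had higher mean ratios at 24M than at 3M, by 0.10 and 0.08 on the log2 scale (exact p = 0.318 and 0.421). The ratios of Clic6 and Kl, on the lower side at 29M with the covariate, overlapped between 29M and 3M (log2 differences -0.24 and -0.13, exact p = 0.2 and 0.3). No ratio passed after adjustment over the 18 tests. The smallest p of the paired-end design, 0.1, cannot pass. Within groups, the SD of the log2 ratio was 0.11 to 0.23 in single-end samples, where that of the log2 level was 0.53 to 0.63.

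**Figure D4:**
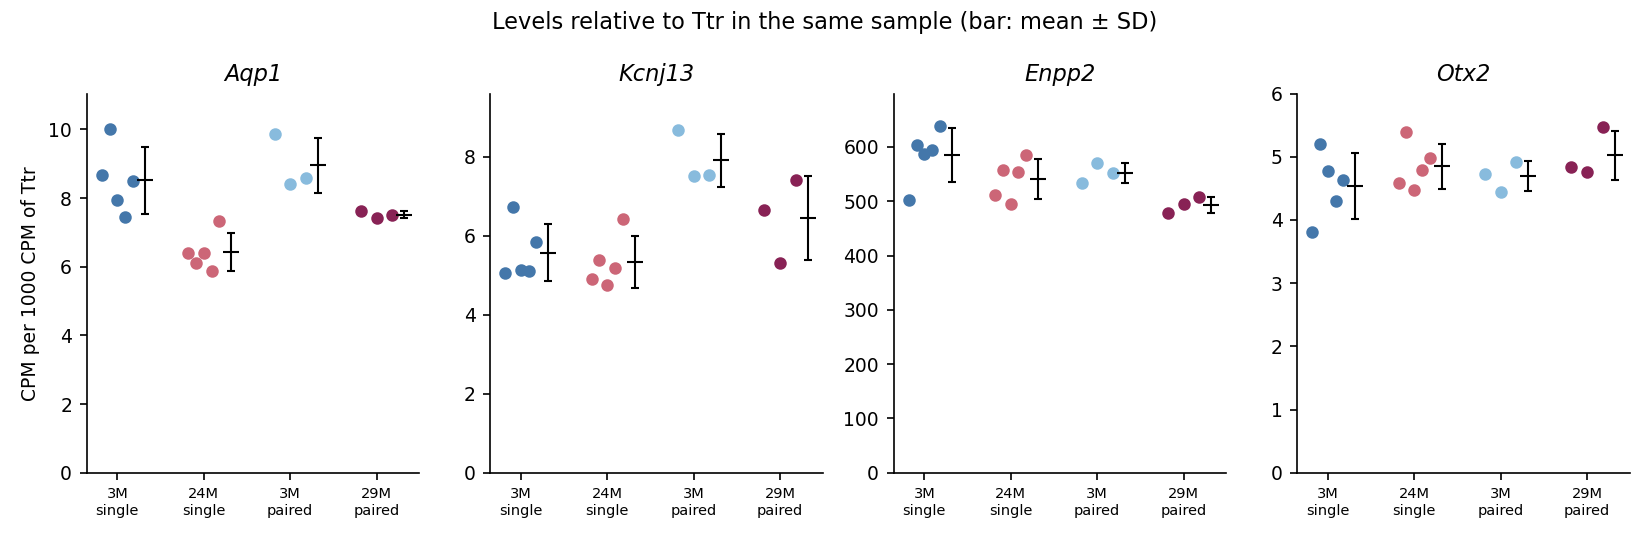
CPM per 1000 CPM of Ttr (vertical axes, from 0) for Aqp1, Kcnj13, Enpp2 and Otx2 in the 4 groups (horizontal axis), 1 point per sample with bars for mean ± SD. The 24M points of Aqp1 (5.86 to 7.33) lie below its 3M points (7.46 to 10.02), and those of the other 3 genes overlap between 24M and 3M.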

How the data were processed

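Per the submitters' notes, the authors aligned reads with STAR 2.3.0 to GRCm38.p2 and counted reads per gene with HTSeq, and they deposited these counts without normalization. The methods name the overlap mode as the only non-default HTSeq setting and do not state the strand setting. Reads without a gene feature were 8.59% to 15.9% of a library's total, lines without a gene included. The strand setting in effect was not tested. The annotation version is not given. Totals and tests leave out the lines without a gene. Names, lengths and coordinates came from GENCODE gene models of GRCm38, which matched 36602 of 38355 identifiers. CPM are counts per 1000000 of the TMM-scaled library total.

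The test was the quasi-likelihood test of edgeR 4.0.16 in R 4.3.3 (with limma 3.58.1), after TMM scaling and the default filter on low counts, and p-values were adjusted over all genes tested. Intervals are 95% intervals of the log2 fold change. DESeq2 1.42.0 was an alternative. Correlations and ratios used numpy 2.4.6 and scipy 1.17.1 in Python 3.11.15, with a pseudocount of 0.5 CPM for correlations. On simulated data, 200 of 200 genes changed 4-fold were recovered among 15683 for 24M against 3M, with 1 false call. For 29M against 3M, 200 of 200 were recovered among 15097, with 10 false calls. The changed genes were drawn from those with higher counts, and 4-fold is far larger than any difference of the members. This recovery therefore does not measure the power to call the members. Otx2 had 176 to 719 counts per library and Ttr 37273 to 155431. Their standard errors were alike, at 0.275 and 0.285 at 24M and at 0.173 and 0.176 at 29M.

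The members and the gene lists were chosen with earlier results of these data known. Besides the members, the genes named are, from each list, those called at either age, or the 1 with the smallest p, and the 10 genes closest to Ttr. Tac2, Hbb-bt and Gm21973 were named after their values were seen. A result of the striatum list is not reported here. In the paired check, same-numbered samples did not deviate together, so replicate numbers were not used as a block. Alternatives were DESeq2, its size factors, other filters, all groups in 1 fit, thinning, the block, the 24M pair kept apart or left out, and each library left out. The covariate fit and the ratios to Ttr were added after the data were seen. Nothing in the labels says whether replicates are separate mice, so p-values measure the spread between these samples.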

Additional observations from a re-analysis of the deposited data

How the results depend on the processing

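The count of members called was 0 at 24M, at 29M and for the difference between ages under every alternative run, DESeq2 and each library left out included. Of the 22 other choroid plexus genes, 0 were called, with a range of 0 to 1 at 24M (Car14 without 3M single-end replicate 5) and 0 to 1 at 29M (Tmem72 without 3M paired-end replicate 3). The small log2 differences of the members turned direction when single libraries, young or aged, were left out. At 24M they ranged from -0.026 to 0.37 for Ttr, -0.17 to 0.24 for Kl, -0.13 to 0.27 for Folr1, -0.13 to 0.32 for Kcnj13, -0.15 to 0.27 for Clic6, -0.22 to 0.27 for Prlr and -0.18 to 0.27 for Enpp2. The ranges at 29M were -0.10 to 0.33 for Ttr, -0.21 to 0.17 for Kl, -0.29 to 0.10 for Folr1, -0.28 to 0.048 for Aqp1, -0.33 to 0.047 for Clic6, -0.011 to 0.43 for Otx2, -0.24 to 0.056 for Prlr, -0.29 to 0.15 for Enpp2 and -0.31 to 0.12 for Sostdc1. The difference between ages ranged from -0.30 to 0.13 for Ttr, -0.28 to 0.14 for Kl, -0.36 to 0.058 for Folr1, -0.12 to 0.30 for Aqp1, -0.33 to 0.13 for Otx2, -0.37 to 0.13 for Prlr and -0.35 to 0.10 for Enpp2. Aqp1, Otx2 and Sostdc1 at 24M and Kcnj13 at 29M kept their direction with every library left out. At 24M the direction also turned with the covariate for Kl (-0.040), Folr1 (-0.042) and Enpp2 (-0.013), with 24M replicates 1 and 4 kept apart for Kl (-0.025) and Enpp2 (-0.010), with both left out for Prlr (0.050) and with thinned counts for Prlr (0.011). The cause was not tested. Without a filter on low counts, Ttr at 29M had an edgeR adjusted p of 0.0267 at a log2 fold change of 0.10, below the fold threshold, and over its other alternatives the lowest was 0.343. 

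Replicate numbers did not pair the samples: correlations of same-numbered deviations were -0.17 to 0.05 at 24M and -0.06 to 0.09 at 29M, and no sample correlated best with its own number. With the replicate number as a block, 0 members were called at 24M, 0 at 29M and 0 for the difference, and Prlr at 24M moved to 0.11.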
